A study of Homo sapiens with 4 samples.

Results

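The peaks of 10 noncoding genes that carry small nucleolar RNAs (snoRNAs) in their introns were examined in a UV-crosslinked PRMT5 RIP-seq experiment: GAS5, SNHG1, SNHG5, SNHG8, SNHG12, SNHG15, SNHG16, SNHG29, ZFAS1 and EPB41L4A-AS1. A peak belonged to a host gene when its first-listed identifier matched that gene on the same strand of GRCh38, and peaks lying fully inside a snoRNA gene were left out. These criteria gave 39 of the 18993 peaks in the list, and every one of the 10 genes had at least 1 peak. The cells were Jurkat, an established human leukemic T cell line, stimulated for 48 hours with PHA, a lectin that activates T cells, and fixed with UV light (264 nm and 400 mJ according to the labels). RNA bound to PRMT5, the arginine methyltransferase that forms a complex with WDR77, was recovered through a FLAG antibody in 2 libraries, and the other 2 libraries were input RNA of cells given the same PHA and UV treatment. The study asked which RNAs PRMT5 binds. The labels do not name the construct that carries the FLAG tag, and an immunoprecipitation without PRMT5 was not analysed here.

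Each peak came with a single RPM (a read count scaled to library size) per group, and how the 2 libraries of a group were combined is not stated. No spread between replicates and no test across libraries can therefore be given, and the read depth of the libraries is unknown. The only error that could be given is the rounding of RPM to 0.01. Among genes that mark the cells, 9 of 10 T cell genes had peaks, with summed input RPM from 9.26 for TAL1 to 417 for CD3D, while of 3 B cell and 4 myeloid genes CD79A, with 37.3 input RPM, and CSF1R, with 29.5, were found. The T cell genes had a median log2 ratio of PRMT5 RIP to input of 0.33. Of their 27 peaks, 2 were at least 2 times input (7.41%), against 56.6% of all peaks. A gene without a peak is not thereby unexpressed, because the list holds called regions only.

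A snoRNA host gene makes more than one kind of RNA. Its exons are spliced into a long noncoding RNA that in many hosts is short-lived and is removed by nonsense-mediated decay when translated, while its introns are trimmed to snoRNAs that guide chemical modification of ribosomal and spliceosomal RNA. Box C/D snoRNAs (SNORD) guide ribose methylation with the methyltransferase fibrillarin, and box H/ACA snoRNAs (SNORA) guide pseudouridylation with dyskerin. RefSeq placed 38 snoRNA genes in the 10 hosts, 30 of the SNORD class and 7 of the SNORA class and 1 whose name gives no class. GAS5 held 11 and SNHG1 held 9, whereas SNHG8, SNHG15 and EPB41L4A-AS1 held 1 each, all of the SNORA class.

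Many snoRNA hosts begin with a terminal oligopyrimidine tract, a C followed by an unbroken run of pyrimidines, as do the mRNAs of ribosomal proteins, whose translation follows cell growth. The starts of the 6 hosts whose 5′-most peak began within 50 nt of the annotated start in the promoter table are shown, because these peaks lie on or next to that end of the RNA. Each window, from RefSeq (GRCh38.p14), runs from 30 bases before the start through the first 30 bases of the RNA, and capitals mark a run of at least 5 bases of C or T that begins with C within 5 bases of the start, on the transcribed strand only.

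SNHG5, chr6:85678704-85678763, minus strand: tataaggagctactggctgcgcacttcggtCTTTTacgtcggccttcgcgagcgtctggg

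SNHG8, chr4:118278732-118278791, plus strand: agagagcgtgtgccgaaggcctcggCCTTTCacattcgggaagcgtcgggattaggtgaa

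SNHG12, chr1:28581844-28581903, minus strand: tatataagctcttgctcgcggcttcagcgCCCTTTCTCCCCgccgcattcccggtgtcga

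SNHG16, chr17:76557734-76557793, plus strand: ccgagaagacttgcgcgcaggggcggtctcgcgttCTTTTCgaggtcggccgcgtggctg

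SNHG29, chr17:16438957-16439016, plus strand: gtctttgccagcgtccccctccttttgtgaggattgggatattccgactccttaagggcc

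ZFAS1, chr20:49278612-49278671, plus strand: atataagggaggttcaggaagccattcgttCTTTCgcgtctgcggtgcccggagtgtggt

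Of the 9 hosts with a sequence in the promoter table, 5 held such a run, and SNHG29, whose first peak began 38 nt from its start, had none within 5 bases of it. In all promoters of that table, 5749 of 27305 (21.1%) held one. Both SNHG5, the host with the highest ratio of PRMT5 RIP to input, and ZFAS1, the host with the lowest, held one. In these 2 hosts the run began at the first base of the RNA. With that base as 1, it began at -5 in SNHG8, -1 in SNHG12 and 6 in SNHG16. The count of 5 is thus not a count of terminal tracts.

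Across the host genes, PRMT5 RIP carried less signal over input than the peak list as a whole. The log2 ratio of PRMT5 RIP RPM to input RPM, with 0.01 RPM added to each, had a median of 0.60 over the 39 peaks and 1.10 over all peaks, and ran from -0.15 in ZFAS1 to 2.22 in SNHG5. No more than 5 of the 39 exceeded the median of all peaks. PRMT5 RIP was at least 2 times input in 7 peaks (17.9%), against 56.6% of all peaks, and rounding of RPM could change none of these calls. It was below input in 4 peaks (10.3%), all in ZFAS1, against 3.84% of all peaks. In the list, peaks below input were more common among those with input of at least 5 RPM than among all. The 3.84% is thus not matched to the input of the host peaks, and no excess in the hosts can be read from these shares.

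The host peaks were also better covered than most. Their median input was 9.30 RPM against 0.83 RPM in the list, and the median log2 ratio of all peaks was lower where input was higher, at 0.89 from 0.5 RPM upward and 0.69 from 5 RPM upward. Where input reached 0.5 RPM, 4 of 33 host peaks reached 2 times input (12.1%), against 44% of all such peaks. Where input reached 5 RPM, 3 of 25 did (12.0%), against 31.4%, and the median log2 ratio of the host peaks was 0.58. By the median, the host peaks were thus closer to the other peaks among those with high input, and the part of abundance in the result was not tested. By the log2 fold change of the authors' peak caller, whose scaling is not stated, 30 of 38 host peaks with a value were at 1 or more (78.9%), against 91.2% of the list, with medians of 1.35 and 1.95. The median of the host peaks lay below that of the list by both measures. The plot of RPM by peak shows both pooled values for all 39 peaks.

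**Figure D1:**
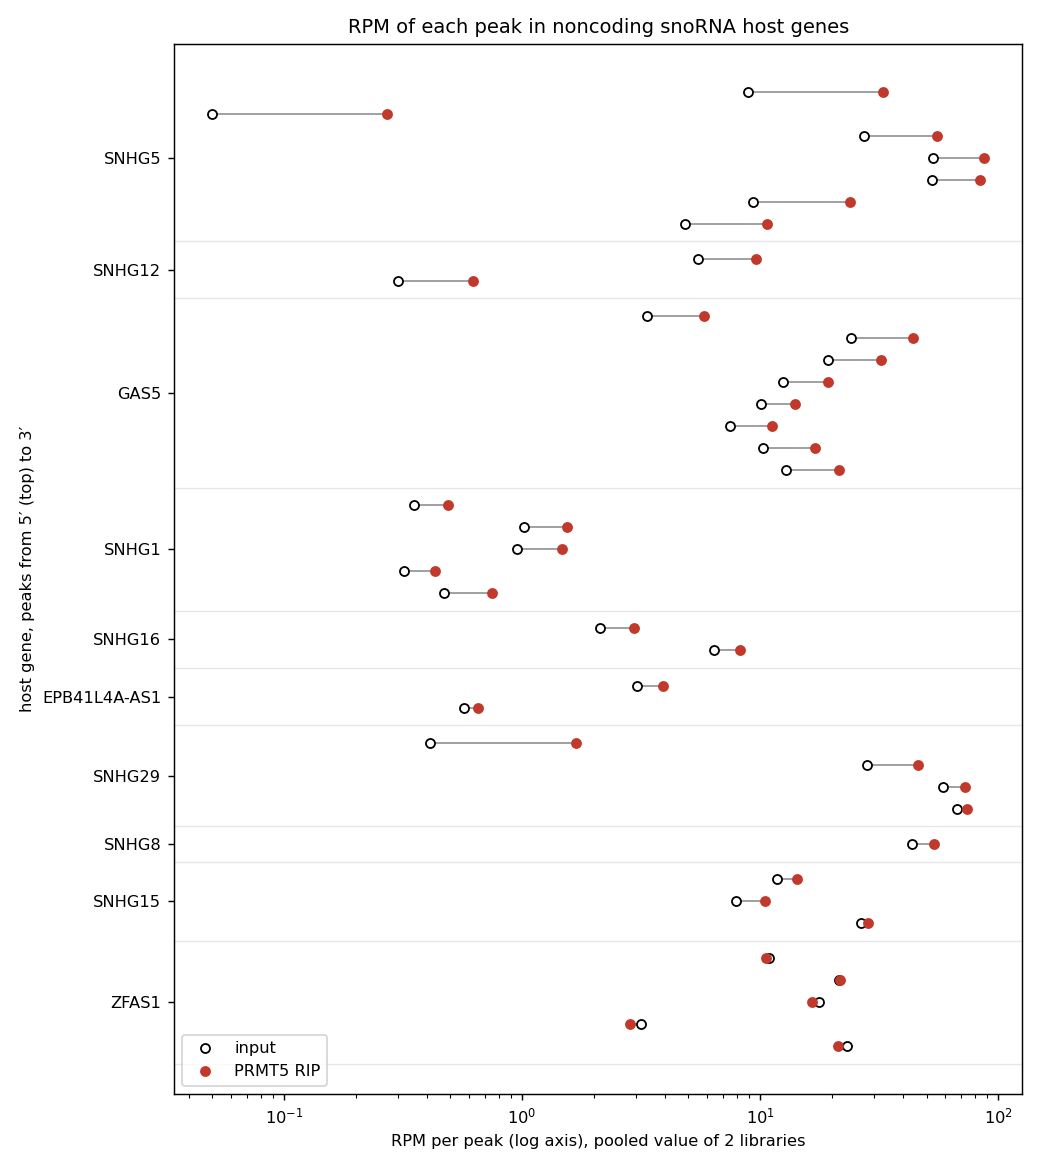
RPM of every host peak on a log axis, with input as open circles and PRMT5 RIP as red circles joined by a line, each a single value per group without replicate error; genes are ordered by the ratio of summed RPM, and peaks run from 5′ to 3′ within a gene. The red circle lies right of the open circle in 35 of the 39 peaks, and the 4 exceptions are in ZFAS1.

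Summed over the peaks of each gene, none of the 10 hosts reached 2 times input, whereas 62.7% of the 8478 genes in the list did. By the caller's log2 fold change the count turned: the median over the peaks of a gene was 1 or more in 9 of the 10 hosts, ZFAS1 being the exception, against 94.9% of genes with a value. The order was SNHG5 (log2 ratio 0.91), SNHG12 (0.82), GAS5 (0.72), SNHG1 (0.59), SNHG16 (0.40), EPB41L4A-AS1 (0.34), SNHG29 (0.33), SNHG8 (0.31), SNHG15 (0.20) and ZFAS1 (-0.07). Without replicates it cannot be said which neighbours in this order differ beyond their spread. SNHG5 ranked highest, with 32.7% of all genes below it, and ZFAS1 ranked lowest, with 1.58% of genes below it. Most hosts were abundant in input: summed input RPM was above that of at least 89.2% of genes for SNHG5, SNHG29, GAS5, ZFAS1, SNHG15 and SNHG8, and above 55.3% of genes for SNHG1. The shares over all genes were not matched for input. Of the 9 T cell genes found, whose peaks had a median input of 9.87 RPM, 0 reached 2 times input. Their median log2 ratio was 0.33, against 0.37 in the 10 hosts.

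SNHG5, host of SNORD50A and SNORD50B, was the host with the most signal in either sample. Per kilobase of peak PRMT5 RIP reached 336 RPM and input 179 RPM, and 5 of its 7 peaks were at least 2 times input. The 5′-most peak, on the minus strand of chromosome 6 from 85678345 to 85678744, reached 11 nt beyond the annotated start shown above and had 32.7 RPM in PRMT5 RIP against 8.87 RPM in input, a fold of 3.69. This was the largest fold of any host peak whose input was 1 RPM or more. The next peak downstream, 50 nt wide, had a fold of 5.40 but only 0.27 RPM against 0.05 RPM, and rounding alone allows folds from 4.82 to 6.11.

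Toward the middle of SNHG5 the signal rose and the ratio fell. The third peak had 55.3 RPM against 27.3 RPM, a fold of 2.02. The 2 most abundant peaks of the gene had 87.1 RPM against 53.2 RPM and 84.0 RPM against 52.8 RPM, with folds of 1.64 and 1.59, the lowest in the gene. Beyond SNORD50B the fold was higher again, with 23.8 RPM against 9.30 RPM (2.56) in the peak between the snoRNA genes and 10.7 RPM against 4.85 RPM (2.21) in the last peak, 3′ of SNORD50A. No SNHG5 peak touched a snoRNA gene.

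SNHG29, host of SNORD49A, SNORD49B and SNORD65, showed the largest change in ratio from the first to the last peak of a host. Its 4 peaks ended no more than 2966 nt beyond the annotated start, in a gene annotated over 31662 nt. Its 5′-most peak, from 16439025 to 16439074 on the plus strand of chromosome 17, had a fold of 4.12, from 1.69 RPM in PRMT5 RIP against 0.41 RPM in input. Rounding allows folds from 4.06 to 4.19. The following peaks had 45.9 RPM against 28.1 RPM, 72.2 RPM against 58.7 RPM and 74.3 RPM against 67.4 RPM. The fold thus fell from 4.12 through 1.63 and 1.23 to 1.10 from 5′ to 3′, while input rose at each step. The second peak touched SNORD49B and SNORD49A, and the third touched SNORD65, so that reads of host and snoRNA cannot be told apart there.

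The last SNHG29 peak, from 16441604 to 16441953, lay opposite a peak of almost the same span that was assigned to LRRC75A, the gene on the minus strand. That peak, from 16441602 to 16441976, had 75.2 RPM against 68.3 RPM, nearly the values of the SNHG29 peak. Whether the same reads entered both cannot be told from the list. Without the overlapping peak, the log2 ratio of summed RPM in SNHG29 was 0.46 over 3 peaks, against 0.33 with it. Of the 39 host peaks only this one and the 3′-most of GAS5 overlapped a peak on the opposite strand, against 18.1% of all peaks.

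GAS5, an RNA named for its accumulation on growth arrest and known as a decoy of the glucocorticoid receptor, had a nearly even ratio along its length. Its 8 peaks had folds from 1.39 to 1.83, with a median log2 ratio of 0.73, and none reached 2. The highest, from 173866154 to 173867047 on the minus strand of chromosome 1, touched SNORD75, SNORD76, SNORD77 and SNORA103, with 44.03 RPM in PRMT5 RIP against 24.0 RPM in input. The lowest fold was in a 50 nt peak between SNORD80 and SNORD47, with 14.0 RPM against 10.1 RPM.

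The GAS5 peaks of 50 to 75 nt lay between successive snoRNA genes and touched none. Per kilobase they had 225 to 280 RPM in PRMT5 RIP, against 49.3 RPM per kilobase in the 894 nt peak. The 3′-most peak had 21.5 RPM against 12.8 RPM, and the overlapping peak on the plus strand, assigned to GAS5-AS1, had 1.85 RPM against 0.87 RPM. The first GAS5 peak began 1054 nt from the annotated start.

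SNHG1, host of a row of SNORD genes, had 5 peaks of 25 to 75 nt at low RPM, between 62852588 and 62853562 on the minus strand of chromosome 11. All of them lay in the 3′ part of the gene, from 2323 nt to 3297 nt beyond the start, and none touched a snoRNA gene. PRMT5 RIP ran from 0.43 to 1.55 RPM and input from 0.32 to 1.02 RPM, with log2 ratios from 0.42 to 0.66. Like GAS5, the gene had no peak at 2 times input.

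SNHG12, the one host with a majority of SNORA genes among several snoRNAs, had 2 wide peaks on the minus strand of chromosome 1, from 28580540 to 28581846 and from 28579941 to 28580389. The one starting 27 nt from the annotated start touched SNORA16A and had 9.65 RPM in PRMT5 RIP against 5.50 RPM in input, a fold of 1.75, and its FDR of 0.114 was the only one above 0.05 among the host peaks in the authors' deposited table. The other, which touched SNORA44, had 0.62 RPM against 0.30 RPM, a fold of 2.07 that rounding allows to lie between 2.02 and 2.12.

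The 3 hosts of a single SNORA gene had small ratios. SNHG8, host of SNORA24, had 1 peak, from 118278756 to 118279406 on the plus strand of chromosome 4, which started 6 nt before the annotated start and ran across the snoRNA gene, with 53.9 RPM in PRMT5 RIP against 43.5 RPM in input (1.24). SNHG15, host of SNORA9 on the minus strand of chromosome 7, with peaks between 44983244 and 44986619, had 14.4 RPM against 11.8 RPM (1.22) at its 5′ end, 10.5 RPM against 7.90 RPM (1.33) in the middle and 28.5 RPM against 26.6 RPM (1.07) at its 3′ end. EPB41L4A-AS1, host of SNORA13 on the plus strand of chromosome 5, with peaks between 112160901 and 112161150, had 3.92 RPM against 3.05 RPM (1.29) and 0.65 RPM against 0.57 RPM (1.14).

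SNHG16, host of SNORD1A, SNORD1B and SNORD1C, also stayed near input, with peaks between 76557766 and 76563175 on the plus strand of chromosome 17. Its peak at the 5′ end, which began 2 nt from the annotated start, had 2.96 RPM in PRMT5 RIP against 2.12 RPM in input (1.40). The other, 4135 nt wide and touching SNORD1B and SNORD1A, had 8.22 RPM against 6.37 RPM (1.29), and was the one host peak without a log2 fold change or FDR in the authors' deposited table. By the log2 ratio, hosts with SNORD genes alone ran from -0.07 in ZFAS1 to 0.91 in SNHG5, and hosts with a SNORA gene alone from 0.20 to 0.34.

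ZFAS1, host of SNORD12, SNORD12B and SNORD12C and antisense to the start of ZNFX1, was the one host whose PRMT5 RIP total, 72.8 RPM, fell short of its input total, 76.2 RPM. Its 5 peaks lay between 49278653 and 49289202 on the plus strand of chromosome 20. From 5′ to 3′ they had 10.6 RPM in PRMT5 RIP against 10.9 RPM in input, 21.6 against 21.5 RPM, 16.5 against 17.6 RPM, 2.85 against 3.16 RPM and 21.3 against 23.1 RPM. The folds lay between 0.90 and 1.01 over peaks from 50 to 7401 nt wide. All 5 still had a positive log2 fold change in the authors' deposited table, from 0.58 to 0.74, the lowest of the host genes. The sign in ZFAS1 thus differed between the RPM ratio and the caller's value, and its peaks had the lowest median of the 10 hosts by both.

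**Figure D2:**
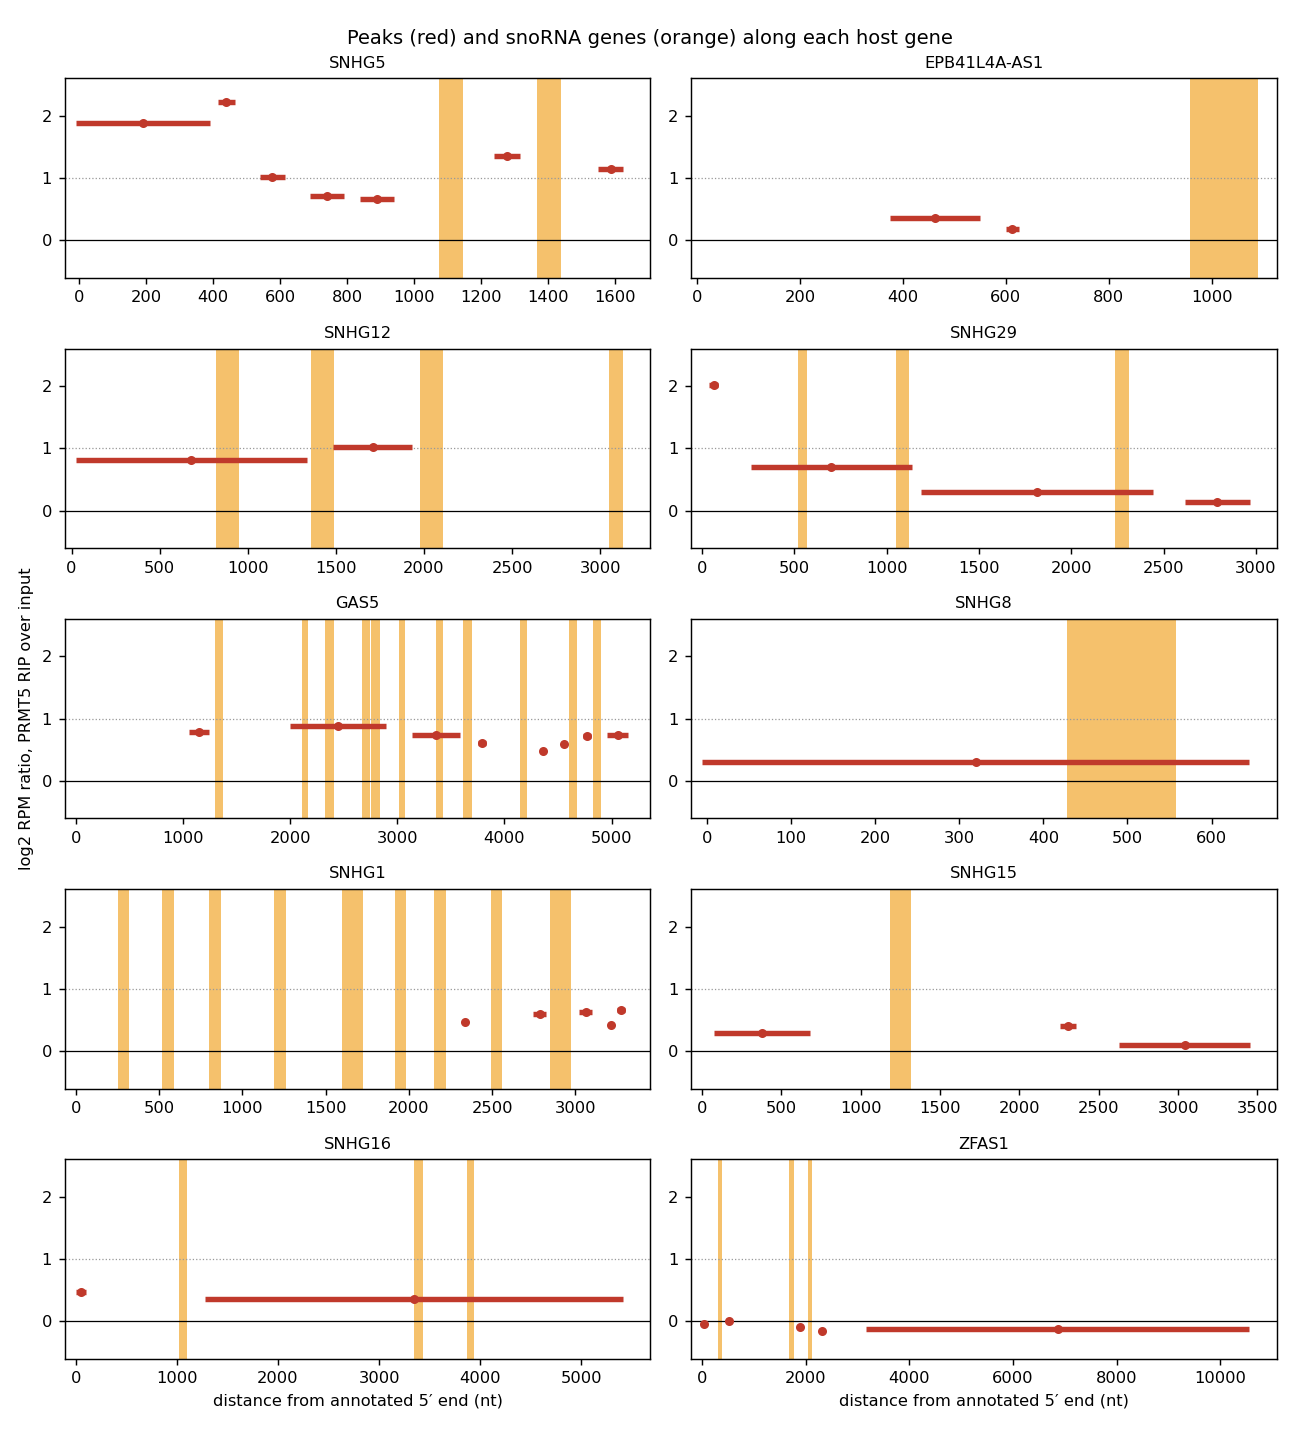
Log2 RPM ratio of PRMT5 RIP over input for each host peak (red bars, as wide as the peak, with a dot at the centre) against the distance in nt from the annotated 5′ end, with snoRNA genes as orange bands; the solid line is 0 and the dotted line 1, and each value is without replicate error. The ratio was highest near the 5′ end in SNHG5 and SNHG29, and stayed within 0.47 to 0.87 along GAS5, 0.42 to 0.66 along SNHG1 and -0.15 to 0.01 along ZFAS1.

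Most host peaks lay outside the snoRNA genes: of the 39, 31 touched none, and 9 of those lay between 2 of them. The share of each host that snoRNA genes cover was not set beside this count, so it shows no avoidance of them. The 8 peaks that touched a snoRNA gene had a median log2 ratio of 0.72, from 0.30 to 1.02, and the 31 others a median of 0.58. Peaks touched 13 of the 38 snoRNA genes. A pair of peaks lay inside a snoRNA gene, SNORA24 in SNHG8 and SNORD65 in SNHG29, and was assigned to that gene and not to the host. These peaks, which were left out, had 5.79 RPM in PRMT5 RIP against 5.58 RPM in input and 9.64 RPM against 8.77 RPM. Their log2 ratios were 0.05 and 0.14.

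In 7 of the 9 hosts with more than 1 peak the 5′-most peak had a higher ratio than the 3′-most, by a median of 0.11 over the 9 on the log2 scale. The difference exceeded 0.5 in SNHG5 (0.74) and SNHG29 (1.88) only, and the first peak of SNHG29 had 0.41 RPM in input. It was small, from 0.05 to 0.19, in GAS5, ZFAS1, SNHG16, EPB41L4A-AS1 and SNHG15, and negative in SNHG1 (-0.19) and SNHG12 (-0.21). The same count was not made over all genes with more than 1 peak. Whether the hosts differ from other genes in this is therefore not known. The first peaks of SNHG8, SNHG12, SNHG16 and ZFAS1, which also began within 50 nt of the annotated start, had folds between 0.97 and 1.75. The start used was that of the promoter table, and the RefSeq gene reached 1110 nt further upstream in SNHG12 and 464 nt in ZFAS1, so that counted from the gene boundary 4 hosts and not 6 had a peak within 50 nt.

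Other snoRNA hosts did not all share the low ratio. Of 18 further noncoding hosts, 13 were found, and their median log2 ratio of summed RPM was 1.26, against 0.37 in the 10 hosts described here and 1.20 over all genes. In these, 7 of 13 genes were at least 2 times input, against 62.7% of all genes, and 15 of 29 peaks (51.7%), against 56.6% of all peaks, so both counts lay close to the list as a whole. Their peaks had a median input of 1.41 RPM. Among those with at least 1 RPM in input, the highest were SNHG11 (log2 ratio 1.81), SNHG9 (1.61) and SNHG7 (1.38), and the lowest were DANCR (0.00), SNHG10 (0.13) and SNHG6 (0.49). SNHG10 and DANCR were near input at a high level, with 77.4 and 35.9 RPM in input.

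Of 43 protein-coding snoRNA hosts, 37 were found, with a median of 0.66. In these, 10 of 37 genes reached 2 times input, against 62.7% of all genes. Below input were 6 genes, for which no share over all genes was taken. The highest of those with at least 1 RPM in input were NOP56 (1.40), a core box C/D protein, DKC1 (1.30), the pseudouridine synthase dyskerin, and RCC1 (1.28), the exchange factor of the GTPase Ran. Those below input included RACK1 (-0.32) and RPL32 (-0.21), both parts of the ribosome. By peaks, 41 of 115 (35.7%) were at least 2 times input, against 56.6% of all peaks and 7 of 39 (17.9%) in the 10 hosts. Below input were 21 peaks (18.3%), against 3.84% of all peaks and 4 of 39 (10.3%) in the 10 hosts. The median input of the 115 peaks was 5.96 RPM, and the shares of all peaks were not matched for input. No excess of peaks below input over the list can therefore be read from them. No test was made of these differences.

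**Figure D3:**
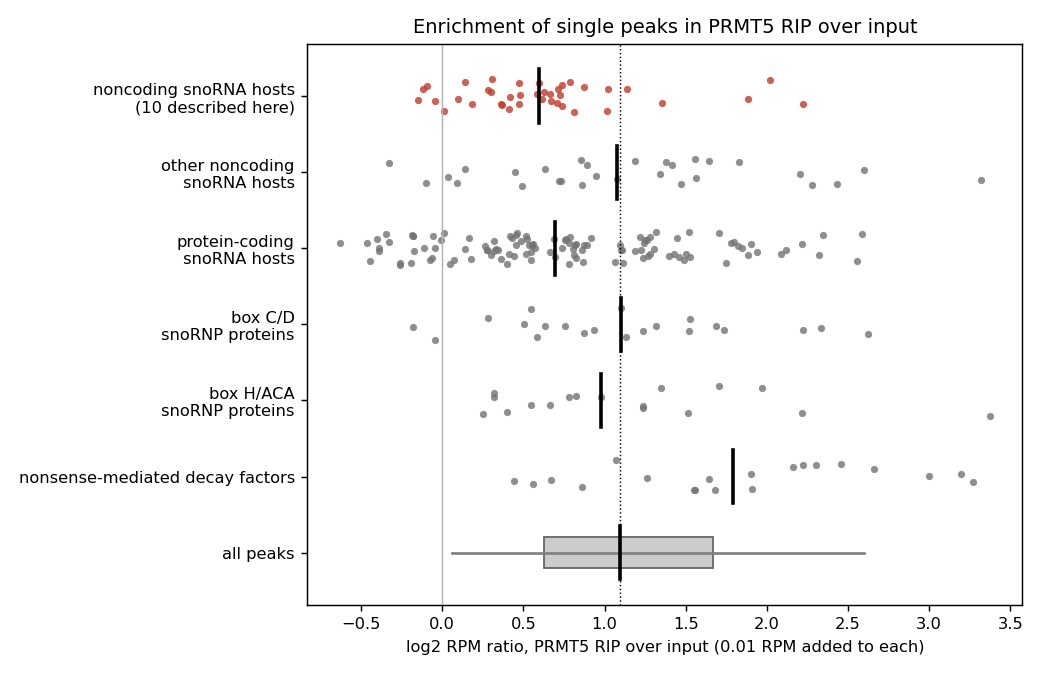
Log2 RPM ratio of single peaks (dots, spread vertically for legibility) in the 10 noncoding hosts and in other gene lists, with the median of each list as a black bar; the box for all 18993 peaks shows the middle 50%, its line the middle 90%, and the dotted line its median of 1.10. The dots of the 10 hosts gather between 0 and 1, with 7 peaks at or above 1.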

How the data were processed

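RIP-seq was made from 2 PRMT5 RIP and 2 input libraries of PHA-stimulated Jurkat cells. The submitters' processing notes name fastp, HISAT2 and hg38. The peak caller, the total to which reads were scaled, strand assignment and pooling are not given in the sources used here. In the deposited list the RPM values, rounded to 0.01 by the authors, are 1 per group and peak. The deposited log2 fold change and the deposited FDR (an adjusted p-value) are those of the peak caller and were used as values of peaks only.

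Peak starts were raised by 1. Identifiers took their symbol from the study's supplemental table of bound genes, of which part was used, and otherwise from the RefSeq gene (GRCh38.p14) that all their peaks touched on the same strand with the most bases. Strand came from the promoter table, and snoRNA genes were placed by coordinates without strand. The name was the same for 815 of 834 identifiers named both ways, 341 identifiers sharing a name were left unnamed, and 7599 of 8478 received one. SNHG15 was placed by its gene boundary. Exons were not used here.

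No test was made, because no value per library was used. Counts and medians stand beside those of all peaks. The members and gene lists were chosen with earlier results of these data known. All 10 host genes are named, and of the other lists at most the 3 highest and 3 lowest genes with at least 1 RPM in input, of which 1 is not reported here. Alternatives covered identifiers, snoRNA overlap, FDR, input RPM, strand overlap, pseudocount and measure. The functions were checked on simulated data. Python 3.11.15, pandas 2.3.3, numpy 2.4.6 and matplotlib 3.10.9 were used.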

Additional observations from a re-analysis of the deposited data

How the results depend on the processing

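No paired analysis was possible because the list holds 1 value per group and peak, although replicates are numbered 1 and 2 in the labels. Leaving out a replicate was likewise not possible. The number of host peaks was 39, and stayed between 31 and 41 except with input RPM of at least 5, an alternative chosen after seeing the data, which left 25. The number of peaks at least 2 times input was 7. It fell to 4 with input RPM of at least 0.5 and to 3 with at least 5, by construction, since fewer peaks entered, and to 3 with a pseudocount of 1 RPM, and rose to 30 by the deposited log2FC. The other alternatives gave 6 or 7. The median log2 ratio of 0.60 became 0.58 with the peaks inside snoRNA genes, without those touching one, and with either limit on input RPM. With pseudocounts of 0.1 and 1 RPM it was 0.58 and 0.34, and by the deposited log2FC 1.35. Of 96 recomputed RPM ratios of single genes, 61 were equal to 2 decimals and 35 moved, and none changed sign. The widest ranges were 0.17 to 0.50 in SNHG29 and 0.73 to 1.02 in SNHG12. The low RPM of SNHG1 and of single peaks in SNHG5, SNHG12 and SNHG29 limits how precisely their folds are known.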

Other observations

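The transcripts that encode the proteins of snoRNA particles and of the decay pathway of host RNAs had higher median ratios than the 0.37 of the 10 noncoding hosts, with overlapping gene values: SNU13 (0.39) and NOP10 (0.30) lay below SNHG5 (0.91). Of 9 genes for box C/D particle proteins and their assembly factors, 8 were found, with a median log2 ratio of summed RPM of 0.95, below the 1.20 of all genes, and a median input of 3.02 RPM per peak. The highest with at least 1 RPM in input were NOP56 (1.40), NOP58 (1.24) and RUVBL1 (1.13), and FBL, which encodes fibrillarin, had 307 RPM in PRMT5 RIP against 205 RPM in input (0.58). All 6 genes for box H/ACA proteins were found, with a median of 1.32 and a median input of 1.03 RPM per peak, and those with at least 1 RPM in input ran from 0.30 in NOP10 to 1.97 in NAF1.

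Of 14 genes for factors of nonsense-mediated decay and the exon junction complex, 10 were found, with a median of 1.93, against 1.20 over all genes, and 8 of 10 at least 2 times input, against 62.7% of all genes. RBM8A, a core protein of the exon junction complex, had 111 RPM in PRMT5 RIP against 24.6 RPM in input (2.17), and UPF1, the helicase of the pathway, had 4.38 RPM against 1.06 RPM (2.04). The lowest were MAGOH (0.86) and EIF4A3 (0.95), partners of RBM8A in that complex. The median input of these peaks was 0.32 RPM, far below the 9.30 RPM of the host peaks, and no test of the difference was made.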
